A study of Mus musculus with 4 samples.

Results

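The genes described here are those of the protein kinase C (PKC) isoforms and of proteins that act with them on the lipid second messenger diacylglycerol. They are 10 genes chosen by symbol (Prkca, Prkcb, Prkcd, Prkce, Prkch, Prkci, Prkcz, Rasgrp1, Rasgrp3 and Marcks), and all 10 were found among the 54532 genes of the deposited table. They were chosen with their difference between Calu-KO and WT cells known, so that difference is given for them as a description, without a test. RNA was sequenced from 2 Calu-KO and 2 WT samples, all labelled as primary fibroblasts of mouse lung. The Calu-KO cells are labelled as a knockout of Calu, the gene of calumenin, which binds calcium within the secretory pathway. The genotype of the WT cells is labelled Calu-WT. Titles of the Calu-KO samples carry the letters KD and those of the WT samples NC, and the way the gene was targeted is not given in the sources used here, nor are strain, age, treatment or whether replicates came from separate animals or cultures. P-values therefore measure only the spread between these libraries, which may be technical.

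PKC enzymes are serine and threonine kinases that carry signals from receptors coupled to phospholipase C. The conventional isoforms (such as alpha and beta) respond to calcium and diacylglycerol, the calcium-independent isoforms (delta, epsilon, eta, theta) to diacylglycerol alone, and the atypical isoforms (iota, zeta) to neither, being controlled by binding partners. Diacylglycerol also recruits the RasGRP proteins, which load Ras and Rap with GTP, and MARCKS is a membrane-bound actin regulator that leaves the membrane when PKC phosphorylates it. In fibroblasts the pathway is known for its part in adhesion, migration and growth factor signalling.

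The libraries held 16510048 and 16038560 recovered reads in Calu-KO and 15635448 and 16033535 in WT. Calu stood at 14.9 and 10.9 FPKM (fragments per kilobase of gene length, scaled for library size) in Calu-KO and at 178 and 177 FPKM in WT. Of 9 fibroblast markers, 6 (Col1a1, Col1a2, Col3a1, Pdgfra, Pdgfrb and Vim) were tested and 1, Col3a1, was called lower in Calu-KO (limma adjusted p = 0.0115), whereas Dcn and Lum had no reads in any library and Thy1 stayed under 1 FPKM. None of 6 lung mesenchyme markers reached 1 FPKM, and the tissue and cell type are named here as the labels give them. Among 5 markers of pericytes and smooth muscle, Des stood at 6.81 and 7.86 FPKM in Calu-KO and at 14.01 and 15.6 FPKM in WT (limma adjusted p = 0.0412), and Cspg4 at 30.1 and 45.2 FPKM in Calu-KO and 36.7 and 34.5 FPKM in WT. The other 3 stayed under 1 FPKM in every library. Acta2 had 0 and 0 reads in Calu-KO and 3 and 2 in WT, Myh11 had 3 and 0 in Calu-KO and 1 and 4 in WT, and Rgs5 had none. The mesothelial marker Msln stood at 25.2 and 22.1 FPKM in Calu-KO and at 32.99 and 30.4 FPKM in WT. The other mesothelial markers were near absent: Upk3b had 3 and 1 reads in Calu-KO and 0 and 0 in WT. Wt1 had 0 and 0 reads in Calu-KO and 0 and 2 in WT. The share of reads from mitochondrial genes was 2.52% and 4.002% in Calu-KO and 2.43% and 2.53% in WT. Without Calu-KO replicate 2, the library with the largest share, the log2 difference of FPKM + 1 between Calu-KO and WT was -3.41 for Prkcb, -0.88 for Prkcd, -0.67 for Prkce, 0.48 for Prkci and 1.43 for Rasgrp3.

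Prkcb, which encodes PKC beta, showed the widest difference of the 10 genes. It had 1 read in each Calu-KO library and 1259 and 1196 reads in the WT libraries, or 0.00773 and 0.00894 FPKM in Calu-KO and 10.1 and 9.41 FPKM in WT. Both Calu-KO libraries lay at about the value of a single read, and the groups were far apart. Its mean was 0.00834 ± 0.000859 FPKM in Calu-KO and 9.73 ± 0.452 FPKM in WT (SD, n = 2 each), 1173-fold lower by reads scaled for depth, with an exact 95% binomial interval of 324 to 9691 that covers counting error only. In bulk samples, fewer cells that express a gene and less RNA per cell cannot be told apart.

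Prkca, the gene of the conventional alpha isoform, had similar levels in both groups. It stood at 10.3 and 13.1 FPKM in Calu-KO and at 10.5 and 11.1 FPKM in WT, and the groups overlapped. Its log2 difference on the log2(FPKM + 1) scale, used for all log2 values below and always Calu-KO minus WT, was 0.09 ± 0.15 (SE), and it was -0.06 without Calu-KO replicate 2 and -0.01 after rescaling by total reads. Within a library, where scaling between libraries cancels, the ratio of Prkcb to Prkca FPKM was 0.00075 and 0.000685 in Calu-KO and 0.953 and 0.848 in WT. Per length, the alpha and beta mRNAs were at similar levels in WT cells, and beta was close to 0 beside alpha in Calu-KO cells. Prkca (ENSMUSG00000050965) lies on chromosome 11 from 107933387 to 108343928 on the minus strand (mm10).

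**Figure D1:**
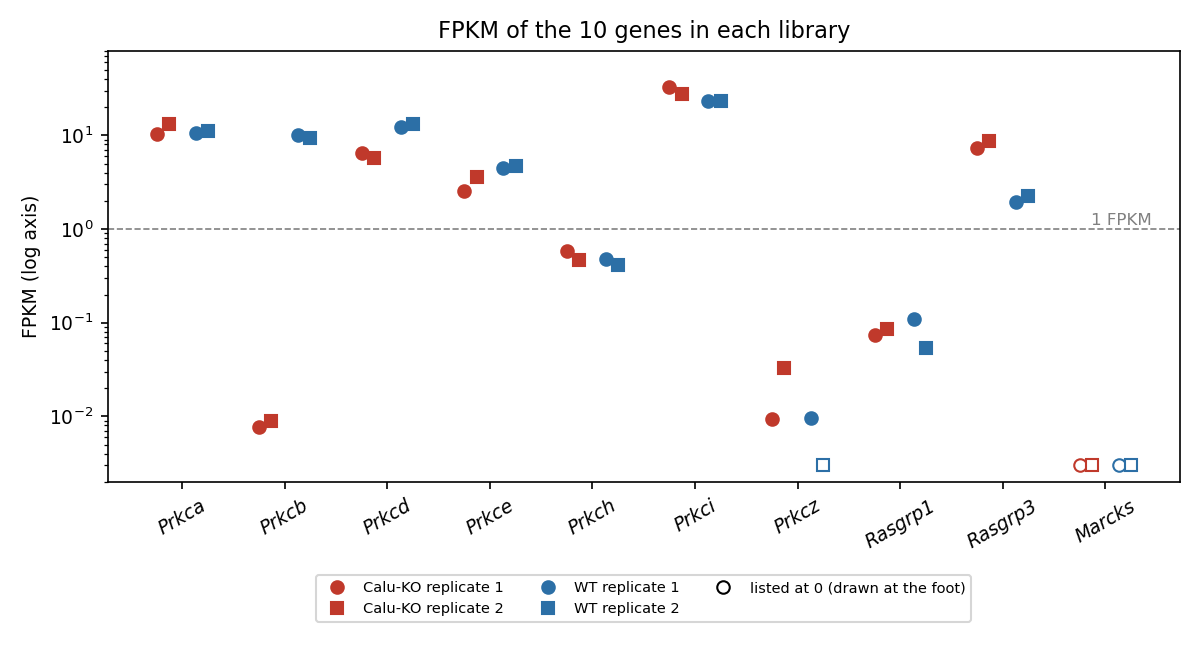
FPKM on a log axis for each of the 10 genes in the 2 Calu-KO libraries (red) and the 2 WT libraries (blue), 1 point per library. Open symbols at the foot mark values listed at 0. The Calu-KO points of Prkcb sit at 0.00773 and 0.00894 FPKM, those of Rasgrp3 lie above the WT points, and those of Prkcd and Prkce below them.

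The promoters of both conventional genes are shown because their levels parted while their proteins share cofactors. The sequences are from RefSeq (GRCm38.p6, the assembly also called mm10), run from 250 bases before to 50 bases after the annotated start, and carry in capitals each match to the GC box GGGCGG on either strand.
Prkcb: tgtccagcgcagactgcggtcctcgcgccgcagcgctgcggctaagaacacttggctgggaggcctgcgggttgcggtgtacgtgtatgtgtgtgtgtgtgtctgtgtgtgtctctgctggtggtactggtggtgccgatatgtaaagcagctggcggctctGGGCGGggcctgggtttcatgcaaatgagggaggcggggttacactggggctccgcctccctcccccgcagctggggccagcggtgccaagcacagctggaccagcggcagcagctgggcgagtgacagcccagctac
Prkca: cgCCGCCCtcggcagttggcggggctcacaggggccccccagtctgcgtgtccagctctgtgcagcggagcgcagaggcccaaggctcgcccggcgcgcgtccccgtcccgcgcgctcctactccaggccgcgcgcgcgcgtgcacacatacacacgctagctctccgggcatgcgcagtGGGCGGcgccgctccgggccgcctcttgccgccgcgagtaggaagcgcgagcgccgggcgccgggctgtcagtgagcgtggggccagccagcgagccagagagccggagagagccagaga
The Prkcb sequence is chr7:122288875-122289174 on the plus strand, and its start lies 374 bases inside the gene as the deposited table bounds it. The Prkca sequence is chr11:108343839-108344138 on the minus strand. Prkcb holds 1 GC box, 19 CpG dinucleotides and 65.3% G and C, and Prkca holds 2 GC boxes, 42 CpG dinucleotides and 75.3% G and C. Over all 32851 such promoters, 35.7% hold a GC box, and the medians are 7 CpG dinucleotides and 52.7% G and C. Neither promoter matched a TATA box (TATAAA, in 13.6% of promoters), a CCAAT box (CCAAT, 37.4%), an AP-1 site (TGANTCA, 7.81%) or an E box (CACGTG, 7.15%), each searched on both strands. No binding or methylation was measured, so the letters describe the window only.

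Prkcb (ENSMUSG00000052889, chromosome 7, 122288751 to 122634402, mm10, plus strand) spans 8 other rows of the table, none of which shares exon bases with it in GENCODE M21. The intronic processed pseudogene Gm14388 (122442023 to 122442499, same strand) had 201 and 317 reads in Calu-KO and 101 and 105 in WT, a log2 difference of 1.30 ± 0.28 (limma adjusted p = 0.0888). Reads of a processed pseudogene can come from its parent gene, so its level is uncertain. The other 7 rows inside Prkcb had 0 to 8 reads in any library. The nearest tested protein-coding genes on either side had mRNA in both groups. Plk1, a mitotic kinase gene 118878 bases from the start of Prkcb, stood at 51.9 and 39.7 FPKM in Calu-KO and 53.2 and 49.7 FPKM in WT. Rbbp6, a ubiquitin ligase gene 331284 bases beyond its end, stood at 19.4 and 23.96 FPKM in Calu-KO and 20.3 and 19.96 FPKM in WT. Of the 23 tested genes within 2 Mb of Prkcb, 0 passed the threshold in limma (2 had an unadjusted p under 0.05), and their median log2 difference was 0.10. Over all 11885 tested genes 2.77% passed, and 2944 had an unadjusted p under 0.05.

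**Figure D2:**
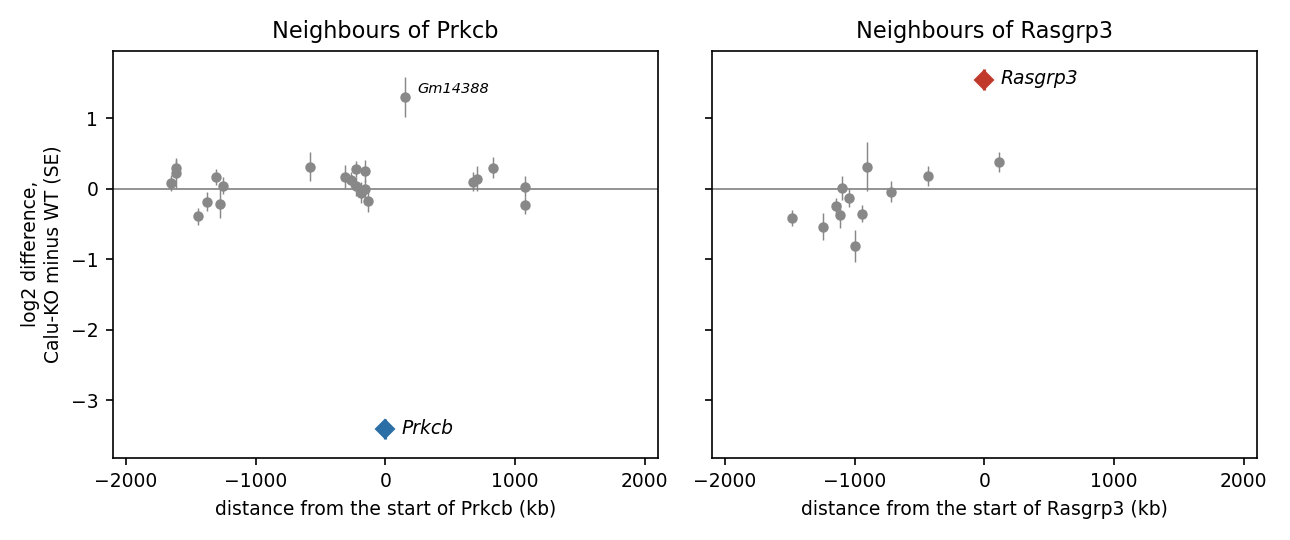
Log2 difference (Calu-KO minus WT, with SE) of tested genes against the distance of their start from that of Prkcb (left) and Rasgrp3 (right), for genes within 2 Mb. Grey circles are the neighbours, which for Prkcb run from -0.39 to 1.30 and for Rasgrp3 from -0.81 to 0.38, and the diamond is the named gene, at -3.41 and 1.54.

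Of the calcium-independent isoforms, delta and epsilon were lower in Calu-KO cells. Prkcd (ENSMUSG00000021948, chromosome 14, 30595354 to 30626210, minus strand), which encodes PKC delta, had 6.50 and 5.68 FPKM in Calu-KO and 12.3 and 13.3 FPKM in WT. Both Calu-KO libraries lay below both WT libraries. The means were 6.09 ± 0.579 FPKM in Calu-KO and 12.8 ± 0.681 FPKM in WT (SD, n = 2 each), a ratio of 0.474 and a log2 difference of -0.97 ± 0.12. Prkce (ENSMUSG00000045038, chromosome 17, 86167785 to 86657919, plus strand), which encodes PKC epsilon, had 2.52 and 3.61 FPKM in Calu-KO and 4.51 and 4.72 FPKM in WT. Its groups also did not overlap, but the Calu-KO libraries differed between themselves by more than the WT libraries did, and the ratio of means was 0.664 (log2 difference -0.48 ± 0.17; -0.67 without Calu-KO replicate 2 and -0.28 without Calu-KO replicate 1). Prkch (ENSMUSG00000021108, chromosome 12, 73584796 to 73778185, plus strand), which encodes PKC eta, was low at 0.581 and 0.473 FPKM in Calu-KO and 0.479 and 0.416 FPKM in WT, and its groups overlapped.

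The promoter of Prkcd at its outermost RefSeq start is shown for comparison with those of the conventional genes, since this gene was lower but not near 0 in Calu-KO cells.
Prkcd: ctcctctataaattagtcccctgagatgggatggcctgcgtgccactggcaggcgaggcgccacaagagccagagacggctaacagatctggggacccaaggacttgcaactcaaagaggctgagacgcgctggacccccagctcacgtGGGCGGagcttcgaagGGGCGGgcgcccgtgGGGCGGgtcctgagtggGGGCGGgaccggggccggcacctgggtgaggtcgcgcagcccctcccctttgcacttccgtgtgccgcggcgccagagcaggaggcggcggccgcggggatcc
It is chr14:30626159-30626458 on the minus strand, and capitals again mark GC boxes. It holds 4 GC boxes, 26 CpG dinucleotides and 69.3% G and C, with 1 TATA box match far upstream of the start and 1 E box match that overlaps the first GC box by a base. A second RefSeq start, 15900 bases into the gene, has 0 GC boxes and 2 CpG dinucleotides. The gene-level values do not separate the starts.

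Of the atypical genes, Prkci was abundant and Prkcz was not. Prkci (ENSMUSG00000037643, chromosome 3, 30995747 to 31052959, plus strand), which encodes PKC iota, a kinase of cell polarity complexes, had the highest mRNA level of the 10 genes in both groups. It stood at 32.8 and 27.9 FPKM in Calu-KO and at 23.4 and 23.02 FPKM in WT, so that both Calu-KO libraries lay above the WT libraries. The ratio of means was 1.31 and the log2 difference 0.37 ± 0.12. Prkcz (ENSMUSG00000029053, chromosome 4, 155260129 to 155361361, minus strand), the zeta isoform gene, had 1 and 3 reads in Calu-KO and 1 and 0 reads in WT, at the limit of what these libraries can count. A processed pseudogene named protein kinase C zeta 2 (Prkcz2, on chromosome 7) had 50 and 58 reads in Calu-KO and 70 and 47 in WT, and reads of near-identical copies may be split between rows.

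Summed over the 7 chosen PKC isoform genes, the level was 52.7 and 50.8 FPKM in Calu-KO and 61.4 and 61.97 FPKM in WT. Prkca, Prkcb, Prkcd, Prkce and Prkch, whose proteins respond to diacylglycerol, summed to 19.9 and 22.8 FPKM in Calu-KO and to 37.9 and 38.95 FPKM in WT. Prkcb made up 0.0147% and 0.0176% of the sum of 7 in Calu-KO and 16.4% and 15.2% in WT. Prkci made up 62.2% and 55.01% in Calu-KO and 38.2% and 37.2% in WT. Among the 5 diacylglycerol-responsive isoforms, Prkca accounted for 51.8% and 57.2% in Calu-KO and 27.8% and 28.5% in WT. These sums are built from the members' own differences and add no evidence for them.

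**Figure D3:**
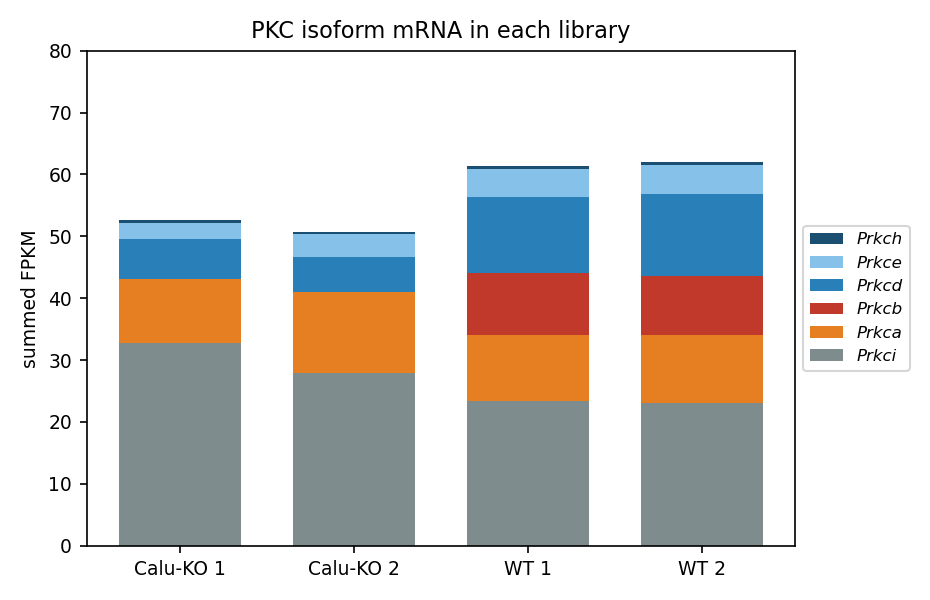
Stacked FPKM of 6 of the 7 chosen PKC isoform genes, without Prkcz, for each Calu-KO and WT library. The red block of Prkcb, 10.1 and 9.41 FPKM in WT, is too thin to see in Calu-KO, and the grey block of Prkci is larger there.

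The order of levels differed between the groups. In Calu-KO, mean FPKM ran from Prkci through Prkca, Rasgrp3, Prkcd, Prkce, Prkch, Rasgrp1, Prkcz and Prkcb to Marcks. In WT it ran from Prkci through Prkcd, Prkca, Prkcb, Prkce, Rasgrp3, Prkch, Rasgrp1 and Prkcz to Marcks. Neighbours in these orders had ranges over the 2 libraries that did not overlap, other than Prkcz and Marcks in WT. In Calu-KO, Prkcz had 1 and 3 reads and Prkcb 1 and 1, too few to settle which was higher. Prkcb was in the ninth place in Calu-KO and in the fourth in WT, and Rasgrp3 was in the third place in Calu-KO and in the sixth in WT.

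Rasgrp3 (ENSMUSG00000071042, chromosome 17, 75435905 to 75529043, plus strand), an exchange factor that activates Ras and Rap when diacylglycerol binds it, was the one member whose mRNA was several times higher in Calu-KO. It had 609 and 630 reads in Calu-KO and 155 and 185 reads in WT, which is 7.32 and 8.76 FPKM against 1.92 and 2.26 FPKM. The groups were well apart relative to the spread within each. The means were 8.04 ± 1.02 FPKM in Calu-KO and 2.09 ± 0.240 FPKM in WT (SD, n = 2 each), a ratio of 3.84 and a log2 difference of 1.54 ± 0.15. Its length in the deposited table, 4921 bases, differs from the 5840 bases of its merged exons in GENCODE M21. Its start or end differs there too. A length scales FPKM alike in every library, but the effect of other gene bounds on its reads was not tested. Rasgrp1 (ENSMUSG00000027347, chromosome 2, 117279993 to 117343001, minus strand), its relative best known from lymphocytes, had 7 and 7 reads in Calu-KO and 10 and 5 reads in WT, too few to compare. The ratio of Rasgrp3 to Prkca FPKM within a library was 0.71 and 0.671 in Calu-KO and 0.182 and 0.204 in WT.

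The first RefSeq promoter of Rasgrp3 is shown because the gene differed in the direction opposite to Prkcb.
Rasgrp3: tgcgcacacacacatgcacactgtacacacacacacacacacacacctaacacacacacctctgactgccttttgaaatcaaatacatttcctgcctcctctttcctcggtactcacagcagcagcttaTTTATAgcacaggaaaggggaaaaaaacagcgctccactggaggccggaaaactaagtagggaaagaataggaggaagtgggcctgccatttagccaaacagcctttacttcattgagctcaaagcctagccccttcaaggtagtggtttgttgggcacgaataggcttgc
It is chr17:75435655-75435954 on the plus strand, and its start is that of the gene in the deposited table. Capitals mark here the 1 TATA box match, which lies on the opposite strand, since no GC box was found. It holds 5 CpG dinucleotides and 48.3% G and C, both below the medians of all promoters. A second RefSeq start, 29633 bases into the gene, has 9 CpG dinucleotides, 52.7% G and C and 0 GC boxes, and the gene-level values do not separate these starts either. Of its neighbours, Ltbp1, a latent TGF-beta binding protein gene 43393 bases before its start, stood at 10.4 and 12.7 FPKM in Calu-KO and at 9.58 and 10.6 FPKM in WT. Fam98a, a gene 8043 bases beyond its end, stood at 35.7 and 43.7 FPKM in Calu-KO and 29.1 and 31.3 FPKM in WT (log2 difference 0.38 ± 0.14, limma adjusted p = 0.186). Of the 12 tested genes within 2 Mb of Rasgrp3, 0 passed the threshold in limma, and their median log2 difference was -0.19. An unadjusted p under 0.05 was found for 5, beside 2944 of all 11885 tested genes. Of the 5, Fam98a was higher in Calu-KO and Yipf4, Xdh, CT033749.1 and CT010445.1 were lower.

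Marcks (ENSMUSG00000069662, chromosome 10, 37133375 to 37138920, minus strand), one of the best-known PKC substrates, had no reads in any of the 4 libraries. A count of 0 allows up to 0.0235 FPKM over the Calu-KO pair and 0.0225 FPKM over the WT pair, on 3 reads per group. No row of the table overlaps it, and of 12 widely expressed genes looked up for comparison 0 were at 0 in any library, the lowest value being 2.14 FPKM. Its relative Marcksl1 stood at 0.147 and 0 FPKM in Calu-KO and at 0.304 and 0 FPKM in WT. Marcks mRNA was not detectable at this depth in either group.

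Of the 10 genes, 6 averaged 1 FPKM or more across all libraries and entered the fit across 11885 genes. Prkch, Prkcz, Rasgrp1 and Marcks did not. In limma with Benjamini-Hochberg adjustment, 1 of the 6 was called higher (Rasgrp3) and 2 lower (Prkcb and Prkcd), while 2.77% of all tested genes were called, 0.942% higher and 1.83% lower. Groups did not overlap for 5 of the 6, 2 of them higher and 3 lower, beside 61.6% of tested genes, 32.0% higher and 29.7% lower. Since the genes were chosen from this contrast, nothing is read from these counts. Without WT replicate 1 or without WT replicate 2, only Prkcb of the 6 kept its call. Without Calu-KO replicate 1 Prkci was also called higher, and without Calu-KO replicate 2 Prkci was also called higher and Prkce lower. Prkcd lost its call after rescaling by total reads, and with no filter on low values 0 of the members were called.

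The genes whose values over the 4 libraries lay closest to those of Prkcb, by Euclidean distance between log2(FPKM + 1) values, were Gm5751 (distance 0.18), Pnma5 (0.76), Calcrl (1.002), Nkain1 (1.06) and Dpt (1.11). Gm5751, a predicted X-linked gene, had 0 and 0 FPKM in Calu-KO and 11.3 and 10.2 FPKM in WT. Calcrl, a receptor gene of the calcitonin family, had 0.267 and 0.421 FPKM in Calu-KO and 6.18 and 6.29 FPKM in WT. Closest to Rasgrp3 were Dusp16 (distance 0.39), a phosphatase gene of JNK and p38, and the aggrecanase gene Adamts5 (0.40), followed by Kctd12b, Zhx1 and Fam71f1. Dusp16 had 5.59 and 8.52 FPKM in Calu-KO and 2.29 and 2.05 FPKM in WT. None of these neighbours in pattern lies on the chromosome of the gene it resembles.

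The other genes of the pathway were read from 10 lists holding 95 genes of the table, of which 59 were tested. Of the 59, 1 was called higher and 2 lower (limma, adjusted p under 0.05). These calls are 5.08% of the 59, beside 2.77% of all tested genes. The lists were chosen with earlier results of these data known, so nothing is read from the difference in share. In limma, 11 of the 59 had an unadjusted p under 0.05, beside 2944 of all 11885 tested genes. Their median log2 difference was 0.02, beside 0.01 for all tested genes. Without WT replicate 1 or without WT replicate 2, 0 of the 59 were called, while the log2 difference was 1.18 and 1.21 for Akap12, -0.69 and -0.74 for Sqstm1 and -1.57 and -1.44 for Plek. The calls were 14 higher and 14 lower without Calu-KO replicate 1, and 2 higher and 10 lower without Calu-KO replicate 2, where the spread comes from the WT pair alone and the remaining Calu-KO library is taken to vary as that pair does.

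No gene was called among the tested enzymes that make diacylglycerol from inositol lipids, beside 2.77% of all tested genes. Lists this short would seldom hold a call at that share, so nothing is read from a 0 here or in the lists below. Of 12 phospholipase C genes 4 were tested and 0 called (0 with an unadjusted p under 0.05), with a median log2 difference of 0.13. Plcb3, the isoform activated by G proteins, stood at 33.2 and 32.04 FPKM in Calu-KO and at 34.8 and 32.5 FPKM in WT. Plcg1, the isoform activated by receptor tyrosine kinases, stood at 11.5 and 13.2 FPKM in Calu-KO and at 11.4 and 9.68 FPKM in WT. Summed over the list, phospholipase C mRNA was 63.9 and 64.5 FPKM in Calu-KO and 64.6 and 58.2 FPKM in WT.

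Nor was a gene called among the tested ones that remove diacylglycerol or form it from phosphatidic acid, beside the same 2.77% of all tested genes. Of 12 diacylglycerol kinase and lipase genes 6 were tested and 0 called (0 with an unadjusted p under 0.05 in limma), with a median of -0.01. Dgkz, whose kinase turns diacylglycerol into phosphatidic acid, stood at 15.5 and 20.2 FPKM in Calu-KO and at 22.9 and 20.8 FPKM in WT. Dgkd stood at 14.7 and 16.5 FPKM in Calu-KO and at 15.8 and 15.1 FPKM in WT. Of 6 phosphatidate phosphatase genes, which run the opposite reaction, 6 were tested and 0 called (1 with an unadjusted p under 0.05). Plpp2 was the highest at 69.8 and 77.8 FPKM in Calu-KO and 70.6 and 71.9 FPKM in WT, and Plpp1 stood at 16.8 and 15.4 FPKM in Calu-KO and 21.9 and 20.5 FPKM in WT (log2 difference -0.38 ± 0.11, limma adjusted p = 0.139).

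Kinases and receptors related to PKC were mostly scarce. Prkd2, a protein kinase D gene activated downstream of PKC, was the only tested gene of its list, which had 0 called (0 with an unadjusted p under 0.05 in limma), at 2.31 and 2.11 FPKM in Calu-KO and 2.48 and 2.11 FPKM in WT. Prkcq, the PKC isoform gene best known from T cells, had no reads in any library. Of 3 PKC-related kinase genes, which lack the domain that binds diacylglycerol, 0 were called (1 with an unadjusted p under 0.05). Pkn2 stood at 13.3 and 17.4 FPKM in Calu-KO and at 9.63 and 10.99 FPKM in WT (log2 difference 0.52 ± 0.16, limma adjusted p = 0.148). Of 8 other genes from families with diacylglycerol-binding members, 2 were tested and 0 called (0 with an unadjusted p under 0.05 in limma). Membership of such a family does not show that each protein binds diacylglycerol. Unc13d, a vesicle priming factor, stood at 3.94 and 4.12 FPKM in Calu-KO and 4.33 and 3.73 FPKM in WT.

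Among 12 genes of PKC maturation, anchoring and turnover, 11 were tested and 1 passed, beside 2.77% of all tested genes. Akap12, a scaffold protein that binds PKC and protein kinase A at the membrane, rose to 13.5 and 16.0 FPKM in Calu-KO, against 5.78 and 5.94 FPKM in WT. The groups did not overlap, and the log2 difference was 1.19 ± 0.13 (limma adjusted p = 0.0274). Rictor, the mTOR complex subunit needed to phosphorylate newly made PKC, was singled out after its values were seen. It stood at 0.279 and 0.424 FPKM in Calu-KO and at 2.19 and 1.75 FPKM in WT, with 80 and 105 reads against 607 and 491, and did not pass (log2 difference -1.13 ± 0.19, limma adjusted p = 0.0571). It passed in 5 of 10 alternatives, and its difference lay between -2.50 and -1.02 over the 10, with -2.50 on the log2 scale of depth-scaled reads. Rack1, a PKC anchoring protein, stood at 307 and 319 FPKM in Calu-KO and at 271 and 278 FPKM in WT, and Pdpk1, the kinase that phosphorylates the PKC activation loop, at 11.99 and 16.9 FPKM in Calu-KO and 11.3 and 10.8 FPKM in WT, and neither passed.

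Among 9 partners of the atypical isoforms 7 were tested and 1 passed, beside 2.77% of all tested genes. Sqstm1, the p62 scaffold that binds atypical PKC as well as autophagy cargo, fell to 108 and 105 FPKM in Calu-KO, against 178 and 173 FPKM in WT (log2 difference -0.72 ± 0.11, limma adjusted p = 0.0451). The call was lost in 6 of 10 alternatives, and the value lay between -0.82 and -0.69 over the 10. Llgl1, a polarity protein phosphorylated by atypical PKC, stood at 16.9 and 19.3 FPKM in Calu-KO and at 16.7 and 15.9 FPKM in WT. Pard3b, singled out after its values were seen, stood at 1.25 and 1.21 FPKM in Calu-KO and at 2.87 and 2.71 FPKM in WT. It did not pass (log2 difference -0.76 ± 0.15, limma adjusted p = 0.0726). Over the 7 tested genes, 3 differences were positive and 4 negative.

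Among 15 genes of PKC substrates 9 were tested and 1 passed, beside 2.77% of all tested genes. Plek, pleckstrin, a major PKC substrate of platelets and leukocytes, fell to 0.435 and 0.29 FPKM in Calu-KO, against 2.70 and 3.05 FPKM in WT (log2 difference -1.51 ± 0.17, limma adjusted p = 0.0311). Of 6 leukocyte and macrophage markers 2 were tested and 1 was called lower, Lyz2 (limma adjusted p = 0.0254), and their summed level was 4.17 and 4.12 FPKM in Calu-KO and 11.1 and 12.2 FPKM in WT. Lyz2 stood at 1.71 and 1.25 FPKM in Calu-KO and at 6.59 and 7.23 FPKM in WT. Cd68 stood at 2.40 and 2.78 FPKM in Calu-KO and at 4.32 and 4.79 FPKM in WT (limma adjusted p = 0.0888). Csf1r had 5 and 7 reads in Calu-KO and 12 and 17 in WT, Ptprc, carried by nearly all leukocytes, had 0 and 0 reads in Calu-KO and 1 and 1 in WT, and Itgam and Adgre1 had none in any library. The part of such cells in the differences of Plek and Prkcb was not tested. For 8 lymphocyte markers the sum was 0.232 and 0 FPKM in Calu-KO and 0.289 and 0.203 FPKM in WT, and for 5 mast cell and platelet markers 0.228 and 0.0251 FPKM in Calu-KO and 0.504 and 0.56 FPKM in WT. Substrates that link actin to membranes were not called: moesin (Msn) stood at 127 and 129 FPKM in Calu-KO and at 132 and 141 FPKM in WT, and radixin (Rdx) at 60.97 and 83.5 FPKM in Calu-KO and 54.4 and 54.01 FPKM in WT.

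The Ras genes that RasGRP proteins act on were not called either, beside the same 2.77% of all tested genes. Of 13 genes of Ras and its other regulators 10 were tested and 0 called (1 with an unadjusted p under 0.05 in limma). Nras stood at 76.6 and 114 FPKM in Calu-KO and at 66.8 and 69.8 FPKM in WT. Rasa3, a GTPase-activating protein that turns Ras and Rap off, stood at 14.5 and 16.5 FPKM in Calu-KO and at 20.4 and 22.3 FPKM in WT (log2 difference -0.44 ± 0.12, limma adjusted p = 0.129).

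**Figure D4:**
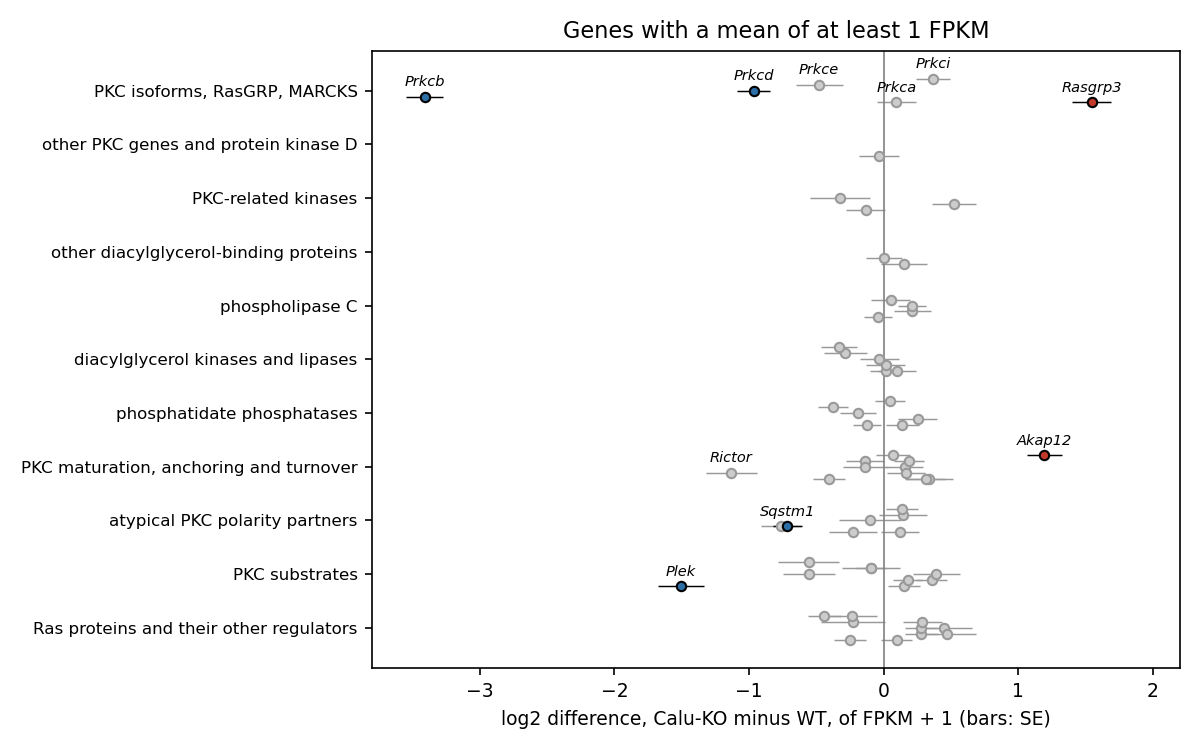
Log2 difference (Calu-KO minus WT, with SE) of the 6 tested members (top row) and of the 59 tested genes of the 10 pathway lists, 1 point per gene. Filled red and blue points are genes called higher and lower in limma, and the 3 called outside the top row are Akap12, Sqstm1 and Plek.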

How the data were processed

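Per the labels' protocols, paired-end Illumina reads were aligned with HISAT2 2.0.5, and per the submitters' processing notes the build was mm10. How reads were counted, on which annotation and whether by strand was not stated there, so antisense partners may share reads. The authors deposited FPKM in 1 table that also holds gene lengths. Multiplying the 2 gave whole reads for 100% of values, within 0.001 reads, after division by each library's step. The deposited scaling equalled median-of-ratios size factors. For 9 of the 10 genes the deposited length equalled the merged exons of GENCODE M21.

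Genes averaging 1 FPKM or more were tested as log2(FPKM + 1), which understates changes of low genes, with limma 3.58.1 in R 4.3.3 (eBayes with trend, two-sided, Benjamini-Hochberg over all tested genes, threshold 0.05). The steps were tested on simulated data. An FPKM ratio is a ratio of group means. A gene without reads was given 3 reads as its floor, over both libraries of a group. Groups come from the sample descriptions. Replicates differed by more than counting error (mean chi-square per gene 46.3 in Calu-KO and 3.82 in WT). The members and lists were chosen with earlier results of these data known. Named genes were the members, Calu, called list genes, up to 4 further genes per list by level (some are not reported here), overlapping rows, flanking genes and the 5 closest in pattern to Prkcb and Rasgrp3. RefSeq promoters were found for 7 of the 10 genes. Alternatives were the pseudocount, filter, scaling, scale, variance prior, replicate block and each library left out.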

Additional observations from a re-analysis of the deposited data

How the results depend on the processing

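As reported, 112 genes were called higher and 217 lower. With no filter on low values limma called 0 genes higher and 0 lower (3886 at an unadjusted p under 0.05), hence 0 members and 0 list genes in either direction. Rescaling by total reads called 45 genes higher, 22.8% of its calls against 34.0%, and 1 member and 1 list gene lower. On the log2 scale of depth-scaled reads, 320 genes were higher and 411 lower, 4 of the lower being list genes. With the replicate block, 181 genes were higher and 312 lower. Same-numbered libraries did not deviate together over the tested genes (correlation 0.0153). With 2 libraries in each group, this cannot settle whether the numbers pair the samples. With a library left out, 8 to 2926 genes were higher and 34 to 2805 lower, the fewest without WT replicate 2 and the most without Calu-KO replicate 1. Among members 0 to 2 were then higher and 1 to 3 lower, and among list genes 0 to 14 were higher and 0 to 14 lower. Each of these fits takes its spread from the pair left whole. The Calu-KO pair differed more than the WT pair (mean chi-square per gene 46.3 and 3.82). Why the pairs differed in spread was not tested.

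Over the 10 alternatives the log2 difference kept its sign for Prkcb (-9.61 to -3.37, with the pseudocount setting its size), Prkcd (-1.08 to -0.88), Prkce (-0.67 to -0.28), Prkci (0.26 to 0.48) and Rasgrp3 (1.43 to 1.94). It ran from -0.06 to 0.25 for Prkca. Calls on Akap12 and Plek were lost in 3 of 10, with no filter or without either WT library, and kept their sign (1.08 to 1.33 and -2.99 to -1.43). Rictor passed in 5 of 10 (-2.50 to -1.05 in those). Depth limits Prkcz, Rasgrp1 and Marcks, with at most 10 reads in a library.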
